A study of Mus musculus with 384 samples.

Results

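Lgr6-sorted lung cells with a high level of Acta2 were compared with Lgr6-sorted cells in which Acta2 was low or absent. The cells were selected on 2 transcripts in log2(TPM + 1), where TPM is a level scaled to transcript length and to the depth of the cell. A cell was called Acta2-high when Acta2 was at least 11 and Tagln at least 8, and Acta2-low when Acta2 was under 8. Of the Lgr6-sorted cells that the authors kept, 63 were Acta2-high (26 from mouse 1 and 37 from mouse 2) and 30 were Acta2-low (12 and 18). The 32 cells between (12 and 20), which make up the rest of the kept Lgr6-sorted cells, were left out of the comparison. The series holds another 57 kept cells, from 2 mice of a second line.

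All of these cells came from 2 mice carrying Lgr6-EGFP-IRES-CreERT2, a knock-in allele in which EGFP marks cells with an active Lgr6 locus. Live (DAPI-negative) GFP-positive cells negative for CD31, CD45, CD11b and TER119 were sorted singly from dissociated lung. The mice of the study were mostly 7-10 weeks old, and the labels give no treatment of these 2. An antibody to EpCAM, an epithelial surface protein, was among the reagents, but the gate given for the single cells does not name it. The other line of the series, Lgr5-CreERT2;R26-Tom, labels cells by tamoxifen-induced recombination rather than by GFP, and is used here only for side-by-side levels. The authors kept only cells above a minimum of detected genes and with Ptprc and Pecam1 below 1 TPM, so the absence of CD45 and CD31 transcripts was set by their filter.

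Acta2 encodes smooth muscle alpha-actin and Tagln encodes transgelin, an actin-binding protein of smooth muscle. In the lung, smooth muscle wraps the conducting airways and vessels, and its contraction rests on actin, smooth muscle myosin, tropomyosins and calponin, with the intermediate filament desmin and the crosslinker filamin holding the apparatus together. Many smooth muscle genes are switched on by serum response factor with its partner myocardin at a promoter element called the CArG box. The alveolar wall holds other cells, among them fibroblasts that express Pdgfra and epithelial type 2 cells that make surfactant.

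Since Acta2 and Tagln chose the cells, their values are a description. Acta2 ranged from 11.03 to 13.76 in the Acta2-high cells of mouse 1 and from 11.13 to 14.10 in those of mouse 2, with medians of 12.46 and 12.97. In the Acta2-low cells the highest value was 6.18, and 23 of 30 were at 0. The lowest Acta2 level among the cells between was 8.11 and the highest below the threshold was 10.97, so no cell lay between 6.18 and 8.11. Only 2 cells had Acta2 above 11 and were left out for Tagln. Tagln was above 0 in 7 Acta2-low cells, with a highest value of 10.54.

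**Figure D1:**
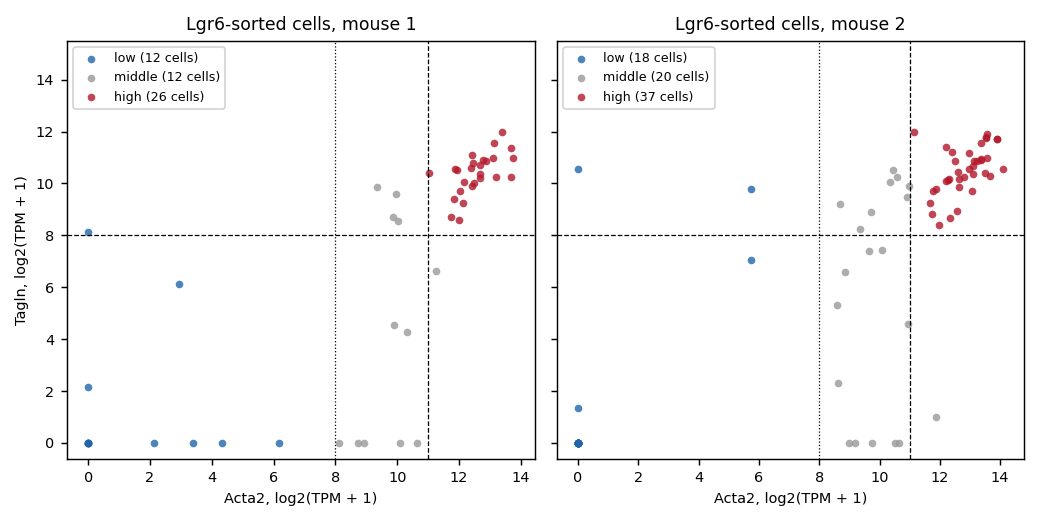
Tagln against Acta2 in log2(TPM + 1), 1 point per Lgr6-sorted cell, for mouse 1 (left) and mouse 2 (right); dashed lines are the thresholds of the Acta2-high cells and the dotted line that of the Acta2-low cells. The Acta2-high cells form 1 group in the upper right corner of either panel, and the Acta2-low cells end at 6.18, below a gap.

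The counts of the cells of 1 group and mouse were summed, which gave 16189840 and 62960312 counts for the Acta2-high cells of mouse 1 and mouse 2, and 7776980 and 34552845 for the Acta2-low cells. The mouse is the replicate. A single Acta2-low cell of mouse 1, with 4060496 counts, held 52.2% of its sum, whereas the deepest cell held between 7.21% and 20.4% of the other sums of the comparison. The precursor ribosomal RNA Rn45s took between 31.8% and 39.5% of each sum. The median number of genes detected per cell was 3210 and 3933 in the Acta2-high cells and 3193 and 4257.5 in the Acta2-low cells. Reads were counted without molecular identifiers, so intervals on counts below cover counting error only.

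Of 12784 genes tested beside Acta2 and Tagln, 12 were higher in the Acta2-high cells (0.0939% of those tested) and 25 were lower (0.196%), together 37 genes or 0.289%, by edgeR's quasi-likelihood test with the mouse as a block and Benjamini-Hochberg adjustment. The genes that rose were led by smooth muscle contractile genes, and those that fell by surfactant genes and by genes of Inmt-expressing cells described below. At an unadjusted p under 0.05 there were 1135 genes (4.53% of those tested higher and 4.35% lower), and 56.25% of the genes tested moved the same way in both mice, 31.6% higher and 24.6% lower. The median log2 fold change over all genes was 0.24, and with library size in place of the TMM factors it was 0.45. With 2 mice the test rests on a spread shared across genes, and calls were counted without each doubtful library. Without the deepest Acta2-low cell of mouse 1 there were 200 calls, in a fit that also held the sums of the Lgr5 mice there were 7, and in that fit there were 8 without Lgr6 mouse 1 and 5 without Lgr6 mouse 2. Sftpc passed in all 19 alternatives that tested it, Actc1 in 20 of 21, Sftpa1 in 18 of 19, Cnn1 in 18 of 21, Sftpd in 17 of 19 and Gsn in 17 of 21. Sftpc, Sftpa1 and Sftpd were not tested where Acta2-low cells with Epcam or Sftpc were left out. Their tallies thus hold only with those cells kept.

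Among the 12 genes that rose, 8 belong to the contractile list. Cnn1 (chromosome 9, 22099216 to 22109630 on GRCm38) encodes calponin, which binds actin and restrains myosin in smooth muscle. It stood at 2643 and 2074 CPM (counts scaled to the depth of the sum) in the Acta2-high sums and at 0.140 and 0.0312 in the Acta2-low sums. Over both mice that is 184423 counts against 2, a ratio of 43070 with a 95% counting interval of 11920 to 355600. Cnn1 had a count in 55 of 63 Acta2-high cells and in 2 of 30 Acta2-low cells. Actc1 (chromosome 2, 114047282 to 114053548), the cardiac alpha-actin, was at 3847 and 2663 CPM against 0.419 and 0.0623, and its log2 fold change was 14.20 ± 0.84 (SE). The sums did not overlap for either gene.

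Actc1 split the Acta2-high cells. It had a count in 19 of 26 cells of mouse 1 and 30 of 37 of mouse 2, with medians of 11.60 and 10.46 in log2(TPM + 1), and the other cells had no count. Reads were assigned by 31-base words, and of 1587 distinct words in the Actc1 transcripts 0 occur in those of Acta2 and 0.756% in any of the actins and other relatives compared. Actg2, the gamma-actin of enteric smooth muscle, had a count in 26 of 26 and 36 of 37 Acta2-high cells and in 2 of 12 and 2 of 18 Acta2-low cells. Its sums were at 1639 and 2251 CPM against 3.77 and 0.0623, but with an edgeR adjusted p of 0.0953 it did not pass.

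Myh11 (chromosome 16, 14194535 to 14291372) encodes the myosin heavy chain of smooth muscle. It was at 2363 and 1840 CPM in the Acta2-high sums and 10.2 and 4.80 in the Acta2-low sums, a log2 fold change of 8.22 ± 0.57 (edgeR adjusted p = 0.00359). It was detected in 62 of 63 Acta2-high cells and 6 of 30 Acta2-low cells. Myl9, a regulatory light chain of the same motor, ranged from 10.64 to 14.14 and from 9.97 to 13.97 in log2(TPM + 1) over the Acta2-high cells of the mice, where every cell expressed it. The Acta2-low cells had a median of 0 for Myl9 in either mouse but reached 12.38, so single cells overlapped. Its sums were at 3176 and 2793 CPM against 205 and 42.5.

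The other contractile genes that rose had counts in both groups, and some also differed in the share of cells that held them. Des had a count in 61 of 63 Acta2-high and 14 of 30 Acta2-low cells. Tpm2 had a median of 0 in the 12 Acta2-low cells with Epcam or Sftpc at 1 or above and without Pdgfra. Des (desmin) was at 2252 and 2387 CPM in the Acta2-high sums and 160 and 131.97 in the Acta2-low sums. Tpm2 (beta-tropomyosin) was at 1220 and 1505 against 42.4 and 33.7 CPM, and Tpm1 (alpha-tropomyosin) at 2469 and 2313 against 310 and 256. Flna, the actin crosslinker filamin A, was at 4665 and 4181 against 525 and 472 CPM. The log2 fold changes were 3.997 ± 0.43 for Des, 5.16 ± 0.56 for Tpm2, 3.09 ± 0.39 for Tpm1 and 3.15 ± 0.32 for Flna, with adjusted p-values from edgeR between 0.0240 and 0.0406. In log2(TPM + 1), Flna ranged from 7.01 to 11.50 over all Acta2-high cells, with medians of 5.55 and 6.74 in the Acta2-low cells of the mice.

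**Figure D2:**
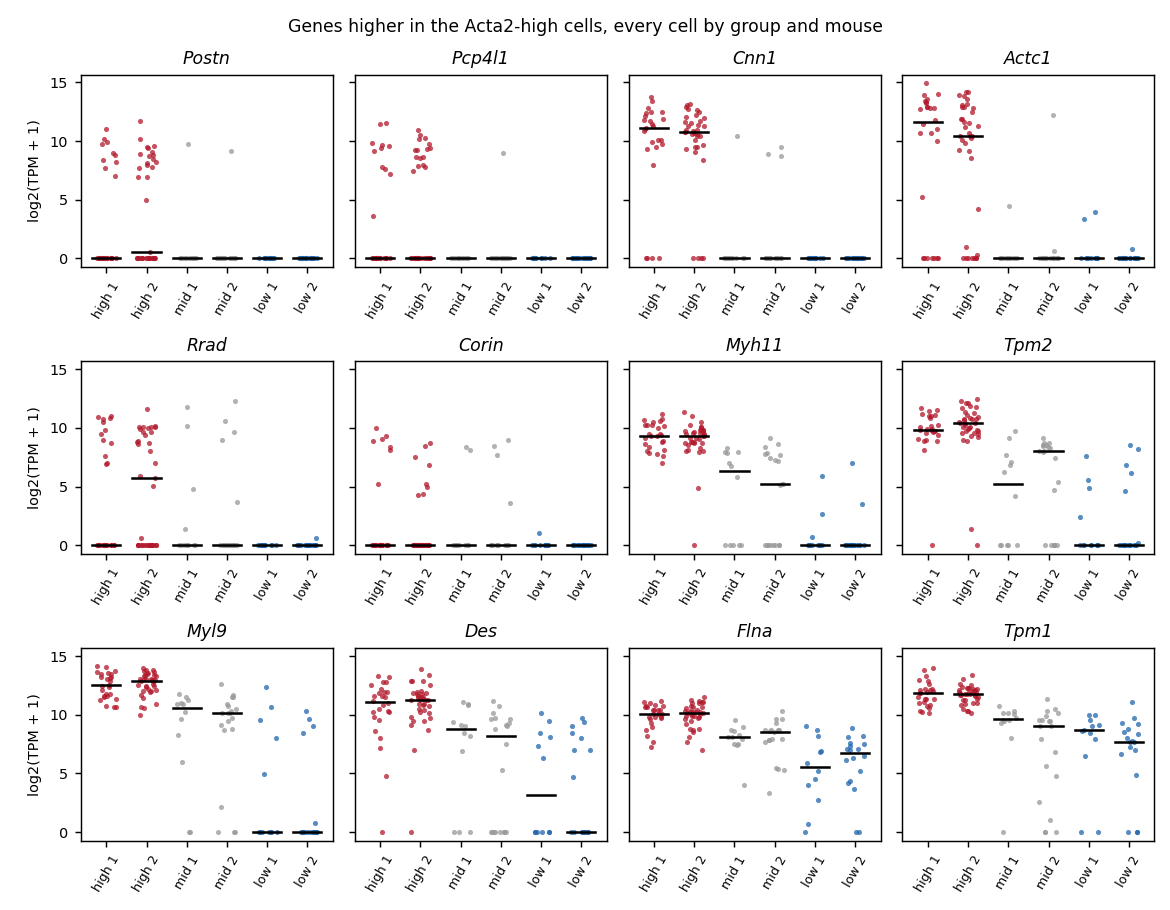
Level of each of the 12 genes that rose, in log2(TPM + 1), with 1 point per cell and a black bar at the median, for Acta2-high (red), in-between (grey, "mid") and Acta2-low (blue) cells of mouse 1 and mouse 2. Myl9, Tpm1 and Flna were present in every Acta2-high cell, whereas Postn, Pcp4l1, Rrad and Corin were at 0 in many of them.

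Windows around the start (250 bases before and 50 after) of RefSeq genes on GRCm38.p6 were searched for the CArG box on both strands. It was present for 1.81% of 27025 genes. Of the 12 genes that rose, 10 have a window and 2 of these, Actc1 and Myl9, hold a box. Of 25 genes that fell, 14 have a window and 0 hold one. These 2 upstream stretches are shown because they belong to genes that rose together, with the box in capitals. The Actc1 stretch is chr2:114052888-114052947, minus strand, with the box at bases -47 to -38 from the start, and the Myl9 stretch is chr2:156775278-156775337, plus strand, with the box at -161 to -152. Starts are those of RefSeq. By the GENCODE span of Actc1 given above, which ends at 114053548, the Actc1 stretch lies inside the gene. A match in letters is a description and not a binding site.
Actc1: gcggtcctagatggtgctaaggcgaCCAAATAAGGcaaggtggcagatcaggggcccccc
Myl9: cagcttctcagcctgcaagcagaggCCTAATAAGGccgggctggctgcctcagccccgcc

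The other genes that rose, Postn, Pcp4l1, Rrad and Corin, were found in 15 to 33 of the 63 Acta2-high cells. Postn (chromosome 3, 54361109 to 54391037), a matricellular protein listed here both with the matrix and with mural cells, was at 415 and 355 CPM in the Acta2-high sums and had 0 counts in the Acta2-low sums, at least 4815-fold higher. It had a count in 10 of 26 and 19 of 37 Acta2-high cells, in 2 of 32 cells between and in 0 of 30 Acta2-low cells, which allows a share of up to 10.0% (3 of 30) or, by the exact interval, 11.6%. Pcp4l1 (chromosome 1, 171173262 to 171196268) was at 474 and 172.7 CPM against 0 counts, at least 3089-fold higher, and had a count in 27 of 63 Acta2-high cells. Rrad, a small GTPase that restrains calcium channels, had 18028 counts against 2, a ratio of 4210 (counting interval 1165 to 34760). Corin, a protease that processes natriuretic peptides in heart, had 9646 counts against 2, a ratio of 2252 (623 to 18600), and was found in 15 of 63 Acta2-high cells. Both were also found among the cells between, Rrad in 9 and Corin in 7 of 32, against 33 and 15 of 63 Acta2-high cells.

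The rest of the contractile list moved the same way. All 22 members that passed the filter on low counts, of 23 beside Acta2 and Tagln, were higher in both mice, with a median log2 fold change of 4.14 beside 0.24 over all genes. Of these 17 had an unadjusted p under 0.05 and 8 passed. Over all genes tested, 4045 of 12784 were higher in both mice. Summed over the 23 members, the list made up 34411 and 31600 CPM of the Acta2-high sums, 6658 and 6816 CPM of the sums of the cells between, and 2383 and 2526 CPM of the Acta2-low sums. Mylk, the kinase that starts contraction, was at 1342 and 1869 CPM against 323 and 246 and did not pass (edgeR adjusted p = 0.185). The 6 genes of cytoplasmic actin and non-muscle myosin had a median of 0.59, and 0 of them passed.

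**Figure D3:**
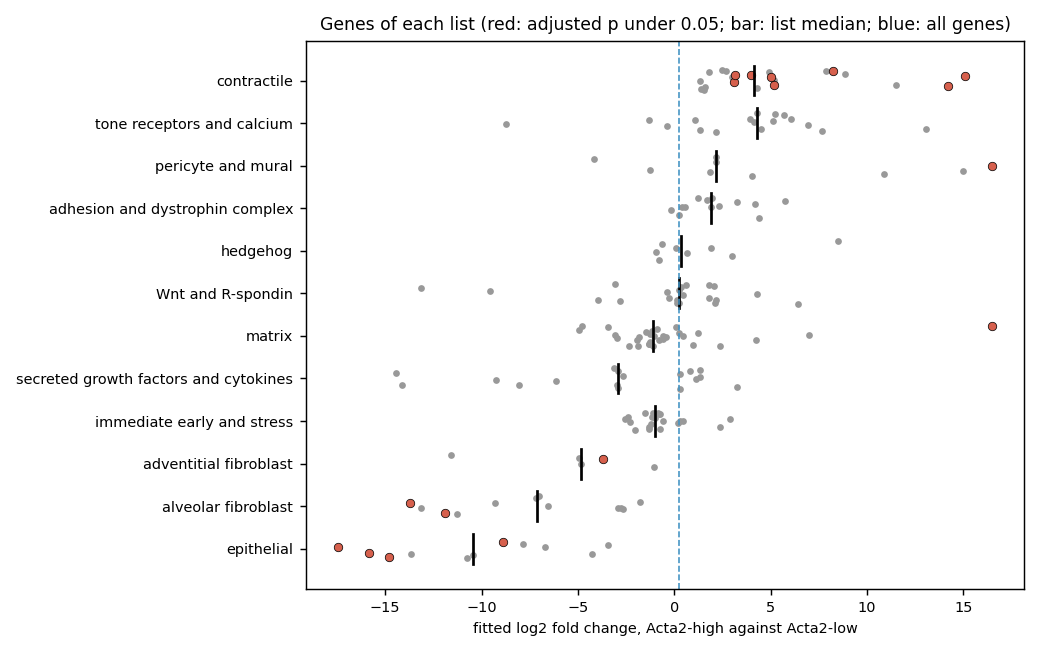
Fitted log2 fold change of Acta2-high against Acta2-low sums, 1 point per gene tested, by gene list; red points passed the adjusted p threshold of 0.05, black bars are list medians, and the dashed line is the median of all genes, 0.24. The contractile list lies wholly to the right of 0 and the epithelial, alveolar fibroblast and adventitial fibroblast lists to the left. Fitted values of genes with 0 counts in a group are not bounds.

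Regulators and receptors of smooth muscle gave 0 calls. Of 13 transcription factors tested, 0 passed and the median was 0.50. Myocd, the gene of myocardin, was at 487 and 521 CPM in the Acta2-high sums and 111.5 and 44.6 in the Acta2-low sums (log2 fold change 2.84 ± 0.71, edgeR adjusted p = 0.386). It was found in 59 of 63 Acta2-high and 9 of 30 Acta2-low cells. Of 17 tone receptors and calcium-handling genes tested, of 21 listed, 14 were higher and 3 lower in both mice, beside 31.6% and 24.6% of all genes. Their median was 4.28, and 0 passed. At an unadjusted p under 0.05, 7 were higher and 1 lower, where 4.53% and 4.35% of all genes were. Chrm2, a muscarinic acetylcholine receptor of airway muscle, was at 934 and 299 CPM against 0 and 23.9 and had a count in 42 of 63 and 2 of 30 cells. Cysltr1, a leukotriene receptor, had counts in 13 of 63 Acta2-high cells, in 0 of 32 cells between and in 0 of 30 Acta2-low cells, and its sums were at least 452-fold higher. Ednrb, an endothelin receptor, was at 991 and 1116 against 116.9 and 42.1 CPM, and Kcnmb1, a subunit of the calcium-activated potassium channel of muscle, at 341 and 169.1 against 5.72 and 2.34. Their adjusted p-values from edgeR were 0.113 and 0.0959.

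Mural cell and cardiac genes were also looked up, since both cell types share contractile genes. Of 9 pericyte and mural genes tested, of 12 listed, Postn alone passed and the median was 2.19. In both mice 7 were higher, beside 31.6% of all genes. Postn and Mcam had 0 counts in the Acta2-low sums, so the filter on low counts fixed their direction. Mcam, an adhesion molecule of vascular and other smooth muscle, was at 120.6 and 136.1 CPM against 0 counts, at least 1738-fold higher, with an edgeR adjusted p of 0.109. Cspg4, the NG2 proteoglycan, had 7560 counts against 1, a ratio of 3531 (counting interval 634 to 139500). Notch3 and Higd1b were at 0 in all 4 sums, and Pdgfrb was at 49.6 and 80.1 against 277 and 81.1 CPM. Of 10 cardiomyocyte genes, 6 were tested and 0 passed, with a median of 5.71, or 5.06 with genes at 0 counts set to their bound. The list summed to 98.5 and 157.8 CPM in the Acta2-high sums and to 5.01 and 15.2 CPM in the Acta2-low sums. Myl7 and Tnnc1 were at 0 in every sum. The part of these cell types in the contractile genes was not tested.

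Lgr6 itself, the gene by which the cells were sorted, was detected unevenly. It was at 69.6 and 73.8 CPM in the Acta2-high sums and 8.51 and 29.8 in the Acta2-low sums, which did not overlap, but did not pass (log2 fold change 2.17 ± 1.36, edgeR adjusted p = 0.916). Lgr6 had a count in 11 of 26 and 23 of 37 Acta2-high cells, together 53.97% (exact 95% interval 40.9 to 66.6). It had a count in 5 of 30 Acta2-low cells, 16.7% (5.64 to 34.7). Among the cells between it had a count in 0 of 12 and 0 of 20, which allows a share of up to 9.38% (3 of 32). With each cell thinned to 1 depth the shares were 47.4%, 18.5% and 0%. In the Lgr5 line it had a count in 8 of 29 and 9 of 28 cells. The exact intervals of the cells between (0 to 10.9%) and of the Acta2-low cells overlap, and no test was made between them.

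**Figure D4:**
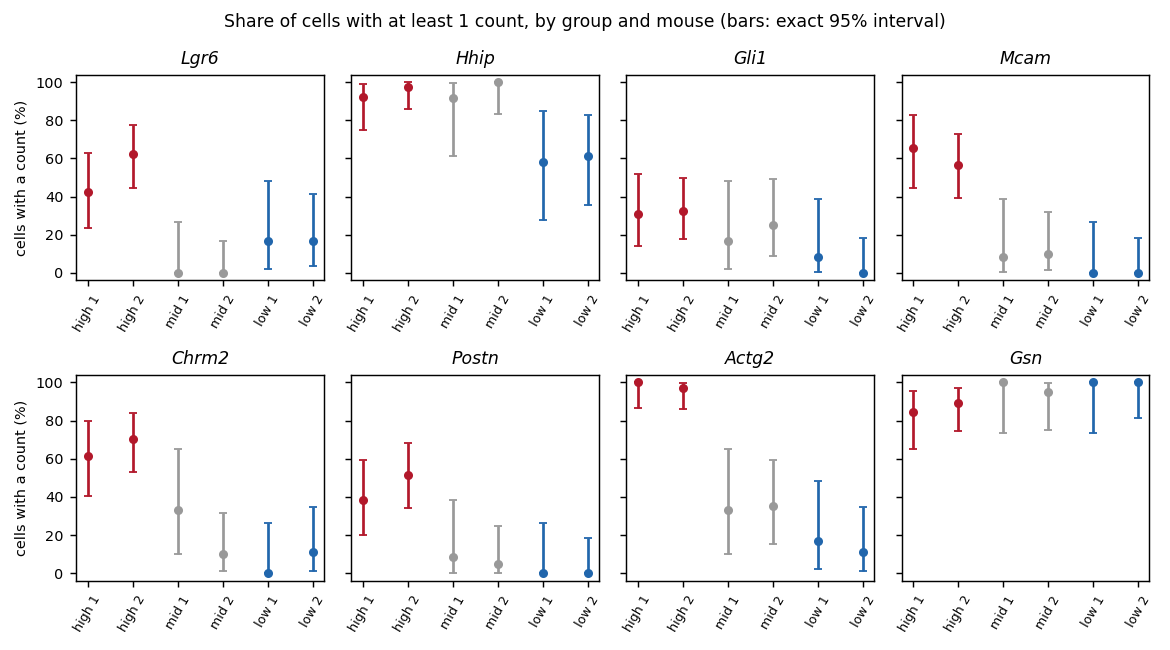
Share of cells with at least 1 count, in percent, for 8 genes, by group and mouse, with exact 95% intervals; red is Acta2-high, grey the cells between and blue Acta2-low. Lgr6 was found in 0 of 32 cells between, while Hhip was found in 31 of them and Gsn in 31.

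Hedgehog and Wnt signalling were followed as whole lists. In the hedgehog pathway 8 of 8 genes were tested, 0 passed and the median was 0.36. Gli1, a transcription factor and target of the pathway, was at 37.2 and 34.4 CPM against 0.558 and 0, and had a count in 20 of 63 Acta2-high and 1 of 30 Acta2-low cells. Ptch1, the receptor, was at 151.4 and 203 against 20.4 and 23.4 CPM, and both genes had an edgeR adjusted p of 0.497. Hhip, a secreted inhibitor that binds hedgehog ligands, was at 3707 and 3431 against 3161 and 1657 CPM. Its log2 fold change was 0.64 ± 0.32 (edgeR adjusted p = 0.744) and turned below 0 with some sets of Acta2-low cells. Of 24 genes of the Wnt and R-spondin list, 21 were tested, 0 passed and the median was 0.24. Lgr5 was at 0.849 and 4.37 CPM in the Acta2-high sums and 1.12 and 140.5 in the Acta2-low sums, which overlapped. A single Acta2-low cell had Lgr5 at 10.83 in log2(TPM + 1), and the others reached no more than 2.73. Wnt2, a ligand, had 0 counts in the Acta2-high cells and was at least 1239-fold lower, with a count in 6 Acta2-low cells.

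Among the 25 genes that fell were those of surfactant and of Inmt-expressing cells. Sftpc (chromosome 14, 70520949 to 70524081), the surfactant protein that marks type 2 cells, was at 0.170 and 0.392 CPM in the Acta2-high sums and at 4804 and 39253 in the Acta2-low sums (log2 fold change -15.85 ± 0.64, edgeR adjusted p = 7.25e-04). Its level was at least 8 in 4 of 12 and 5 of 18 Acta2-low cells and in 0 of 63 Acta2-high cells. Some counts were found more widely, in 14 of 63 Acta2-high cells with a highest level of 7.80. In these 9 Acta2-low cells Sftpc ranged from 15.05 to 18.41 with a median of 18.04.

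The rest of a surfactant program was found in the same 9 cells, at the lowest levels in 1 of them. Sftpa1, Sftpb and Sftpd, the other surfactant proteins, were at 8 or above in 9 of 9. Slc34a2, a phosphate transporter, and Lamp3, a protein of the lamellar bodies that store surfactant, reached 8 in 8 of 9. Napsa, a protease that processes surfactant proteins, and Scd1, a lipid desaturase, reached it in 9 of 9, and Lyz2, a lysozyme of myeloid and type 2 cells, in 8 of 9. The cell below 8 was the same each time, with Slc34a2 at 7.52, Lamp3 at 7.55 and Lyz2 at 0. That cell also had Inmt, as given below. Sftpa1 was at 0.113 and 0.271 CPM in the Acta2-high sums against 1607 and 11972, and Lamp3 had 0 counts in the Acta2-high cells, at least 21660-fold lower. Of 12 epithelial genes listed, 11 were tested and all were lower in the Acta2-high sums of both mice, beside 24.6% of all genes. Their median was -10.42, and 4 passed (Sftpc, Sftpa1, Sftpb, Lamp3). Epcam and Lamp3 had 0 counts in the Acta2-high sums and met the filter on low counts through the Acta2-low sums alone. Their direction was thus fixed by the filter. Others were near 0 there, such as Krt8 with 2 counts against 3821. The list summed to 13.7 and 20.7 CPM in the Acta2-high sums and to 6242 and 50956 CPM in the Acta2-low sums, and Foxj1 of ciliated cells was at 0 in the Acta2-low sums. Of the 4 immune genes tested, Lyz2 passed, and C1qa, C1qb and Cd3e were at 0 in every sum. Lyz2 shares 32.8% of its 31-base words with Lyz1, so reads could be divided between them. The part of epithelial cells in the genes that fell was not tested. The sums given below leave out a wider set of Acta2-low cells than the 9 Sftpc cells. H2-Ab1, an MHC class II chain, had 0 counts in the Acta2-high cells and was at least 11440-fold lower.

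A second set of Acta2-low cells was marked by Inmt, a methyltransferase of lung stroma. Inmt (chromosome 6, 55170626 to 55175043) was at 0.0566 and 5.36 CPM in the Acta2-high sums and 2290 and 5085 in the Acta2-low sums (log2 fold change -11.88 ± 1.46, edgeR adjusted p = 0.0399). It was at 13.02 to 15.52 in 4 Acta2-low cells of mouse 1 and 6 of mouse 2. Adh1, a dehydrogenase of alcohols and retinol, Hsd11b1, which activates glucocorticoids, and Dpep1, a membrane dipeptidase, were at 5 or above in 10 of these 10 cells. Lrat, the enzyme that stores retinol as esters, and Vcam1, an adhesion molecule, reached 5 in 9 of 10. Pdgfra, the receptor that marks alveolar fibroblasts, reached 5 in 8 of 10, was at 0.453 and 0.0301 against 274 and 459 CPM in the sums, and did not pass (edgeR adjusted p = 0.0722). All 6 Acta2-low cells with Wnt2 at 1 or above belonged to this set. Lrat and Dpep1 had 0 counts in the Acta2-high cells and were at least 9570-fold and 11950-fold lower. Of 12 alveolar fibroblast genes tested, 11 were lower in both mice, beside 24.6% of all genes, and 2 passed (Inmt and Vcam1). The median was -7.10, or -6.77 with genes at 0 counts set to their bound. Those genes, Wnt2 and Tcf21, had 0 counts in the Acta2-high cells, so the filter on low counts fixed their direction.

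The remaining 12 Acta2-low cells (5 and 7) had Sftpc below 8 and Inmt at 0, and they had Hhip. Hhip ranged from 7.43 to 11.48 in them, with a median of 10.62. It was at 0 in all 9 Sftpc cells and no higher than 7.08 in the Inmt cells. The Acta2-high cells had Hhip medians of 10.02 and 9.88 and reached 11.45, and the cells between had medians of 10.34 and 10.21. Aspn, which encodes asporin of the extracellular matrix, had a median of 8.07 in these 12 cells, 0 in the Inmt cells and 0 in the Sftpc cells. Mgp, a matrix protein that inhibits calcification, was high in both the Hhip and Inmt cells, with medians of 14.79 and 15.08. Of the 5 Acta2-low cells with Lgr6 at 1 or above, 0 were Inmt cells and 1 was an Sftpc cell. The division by Sftpc, Inmt and Hhip was made after the values were seen and carries no test. A single cell, of mouse 1, had both Sftpc (15.05) and Inmt (13.80), and no doublet caller was run.

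**Figure D5:**
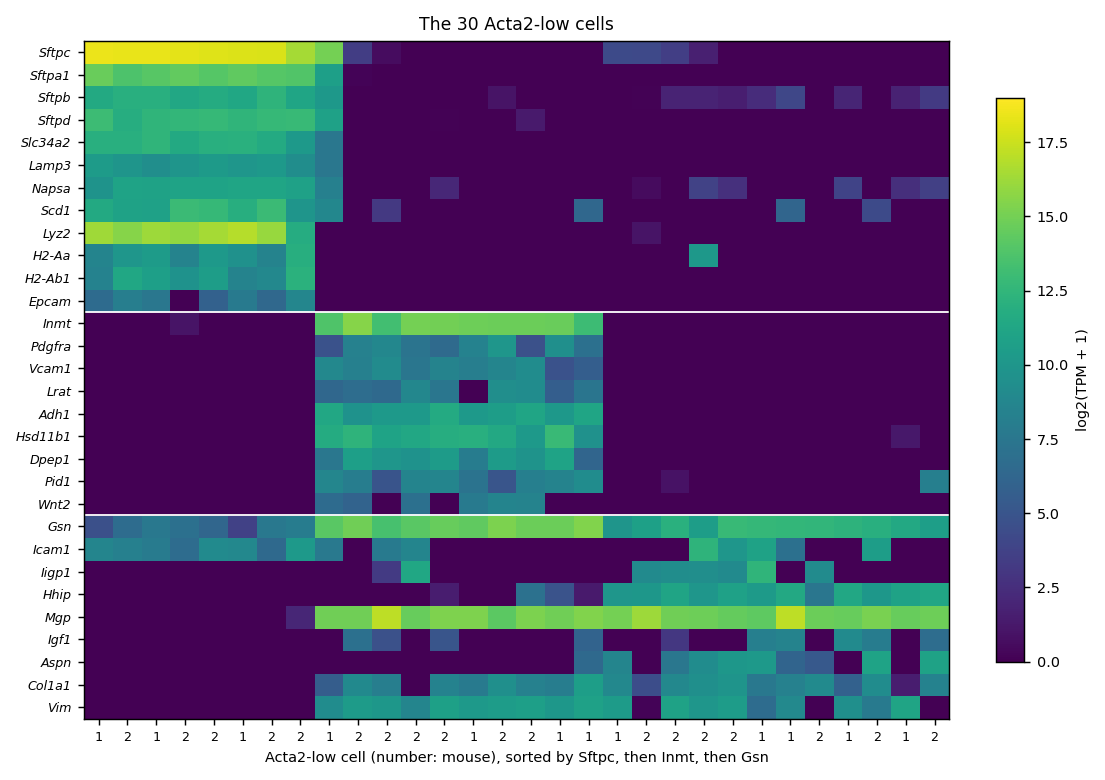
Level of 30 genes in the 30 Acta2-low cells, in log2(TPM + 1) from 0 (dark) to 19 (yellow); columns are cells, labelled by mouse and sorted by Sftpc, Inmt and Gsn, and white lines part surfactant genes, genes of the Inmt cells and others. The blocks that follow each other are 9 cells with Sftpc at 8 or above, then cells with Inmt, then 12 cells with Hhip, with 1 cell in both of the first 2 blocks.

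Gsn (chromosome 2, 35256380 to 35307892), an actin-severing protein listed with adventitial fibroblasts, was present in all groups. It was at 1817 and 1204 CPM in the Acta2-high sums and 30773 and 12259.8 in the Acta2-low sums, a log2 fold change of -3.71 ± 0.25 (edgeR adjusted p = 0.00345). The Inmt cells were highest, from 13.48 to 15.42, the Hhip cells ranged from 9.89 to 12.83, and the Sftpc cells had a median of 7.03. The Acta2-high cells had medians of 9.19 and 9.92 and the cells between 12.32 and 11.85. All 5 adventitial genes tested, of 8, were lower in both mice, beside 24.6% of all genes, with a median of -4.84. Gsn alone passed, and Clec3b had 0 counts in the Acta2-high cells, so the filter on low counts fixed its direction.

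Another 10 genes that fell lie outside the rule for named genes or the lists and were named after their values were seen. Beside Napsa, Slc34a2 and Scd1, given above, Ctsh, H2-Aa, Chi3l1 and Il8 were at 1 or above in 8 or 9 of the 12 Acta2-low cells with Epcam or Sftpc and without Pdgfra, and in 0 to 3 of the 8 cells with neither. Pid1 was at 1 or above in 8 of 8 cells with Pdgfra alone and in 0 of those 12. Il8 and Chi3l1 are older symbols of Cxcl15 and Chil1 in RefSeq. Icam1, an adhesion molecule, and Iigp1, an interferon-induced GTPase, did not keep to 1 set. Icam1 had a median of 8.31 in the Sftpc cells and reached 12.39 in the Hhip cells, and was at 5.38 and 5.38 CPM in the Acta2-high sums against 395 and 561. Iigp1 was at 0 in all Sftpc cells and had a median of 4.53 in the Hhip cells. Iigp1 turned direction when only Acta2-low cells without a count of Acta2 were used, with a log2 fold change of 1.57.

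Calls depended on which Acta2-low cells entered the sums. Epcam or Sftpc at 1 or above was met by 14 of them, a wider set than the 9 Sftpc cells. Of the 12 among these without Pdgfra, 8 had Sftpa1 and 4 had Hhip at 1 or above. The 11 Acta2-high cells that met the same level stayed in the sums. Without the 14 cells that had Epcam or Sftpc at 1 or above, 5 genes passed instead of 37, with Cnn1 and Actc1 higher and Adh1, Hsd11b1 and Gsn lower. Without those and without the cells with Pdgfra, 8 Acta2-low cells remained and 5 genes passed, Cnn1, Actc1, Flna, Myl9 and Rn45s, all higher. The median of all genes was 2.99 in that comparison and 0.75 without the Epcam or Sftpc cells, so its log2 fold changes are to be read against 2.99. They were 14.51 for Cnn1, 13.285 for Actc1, 4.41 for Flna, 5.15 for Myl9, 8.49 for Myh11 and -1.24 for Gsn. Without the 10 cells with Pdgfra 50 genes were higher and 78 lower. In these sums of fewer cells, a lost call is not evidence that the levels were alike.

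Matrix and signalling lists gave few calls. Of 31 matrix genes tested, Postn alone passed, and the median was -1.11, with 14 genes lower and 6 higher in both mice, beside 24.6% and 31.6% of all genes. Mgp was at 1952 and 1324 CPM in the Acta2-high sums against 6853 and 5101 in the Acta2-low sums (edgeR adjusted p = 0.0679). Of 17 secreted factors tested, 0 passed and the median was -2.92. Il33, an alarmin, and Cxcl14, a chemokine, had 0 counts in the Acta2-high cells and were at least 2832-fold and 2375-fold lower, without passing. Il33 was at 1 or above in 6 of 12 Acta2-low cells with Epcam or Sftpc alone and in 0 of the others. Cxcl14 was so in 7 of 8 with Pdgfra alone, 2 of 2 with both, 1 of 12 with Epcam or Sftpc alone and 0 of 8 with neither. Of 21 immediate early and stress genes tested, 14 were lower and 4 higher in both mice, beside the same 24.6% and 31.6% of all genes, and 0 passed. Zfp36, which destabilises cytokine messages, was at 198 and 93.5 against 1434 and 433 CPM, and Hspb1, a small heat shock protein of muscle, at 559 and 454 against 37.1 and 124.2. Of 81 cytosolic ribosomal protein genes, 0 passed and the median was -0.23. The adhesion, duct myofibroblast and mesenchymal lists gave 0 calls, with medians of 1.91, 0.82 and -0.89. Of the endothelial list Kdr alone was tested, at least 1737-fold lower without passing. Kdr was at 1 or above in 2 of the 8 Acta2-low cells with neither Epcam or Sftpc nor Pdgfra, and in 0 of the others. The list summed to 0 and 0.635 CPM in the Acta2-high sums and 274 and 17.2 CPM in the Acta2-low sums. Of the glial list 1 gene was tested, at -0.19, and of the mesothelial and erythroid lists 0 passed the filter on low counts.

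The cells between, which the comparison left out, lay between the groups in their medians of Myl9 and Flna but not of Hhip, given above. Median Myl9 was 10.59 and 10.13 there against 12.50 and 12.87 in the Acta2-high cells and 0 in the Acta2-low cells of either mouse, and median Flna was 8.10 and 8.57. Cnn1, Actc1 and Postn had counts in 6, 3 and 2 of the 32 cells. In the Lgr5 line the same rule gave 1 Acta2-high cell, 20 cells between and 36 Acta2-low cells of 57. Hhip had medians of 10.15 and 9.69 there, and Sftpc, Inmt and Lgr5 were detected in 22, 12 and 44 cells. Detection does not require the level of 8 that set the Sftpc cells apart. The 14 of 63 Acta2-high cells with an Sftpc count all stayed below that level. The lines differ in reporter, mice and depth, which cannot be told apart from the gene that drove the reporter.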

How the data were processed

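Single cells were sequenced by a modified SmartSeq2 protocol with paired reads. Per the submitters' processing notes, bcl2fastq 2.17.1.14 and kallisto 0.43.0 were used on mm10, and the authors deposited gene counts summed from transcripts. They also deposited log2(TPM + 1) values and a score of counts scaled to a common depth for the cells they kept. The annotation release is not given in the sources used here. All 23422 rows of the count table name a gene, 0 columns belong to another series, and no 2 Lgr6 cells held identical counts. Pools and removed wells were not used.

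Counts of kept Lgr6-sorted cells were summed per mouse and group and tested with edgeR 4.0.16 in R 4.3.3 (TMM factors of 1.10, 0.925, 1.06 and 0.933 for high and low of mouse 1, then of mouse 2; filterByExpr; glmQLFit; glmQLFTest) with the mouse as a block, Benjamini-Hochberg adjustment and a threshold of 0.05. Of 182 kept cells, 125 were Lgr6-sorted. Both groups come from the same mice, which pairs the sums, although deviations of same-numbered sums correlated at only 0.0319. Without the block 18 genes passed, all among the 37. CPM values use TMM-scaled totals; list sums use plain totals. Where a group had 0 counts, 3 counts over both mice were put in their place to give the smallest fold. Such genes met the filter on low counts through the other group alone, which fixed their direction in the tallies by list. Ratios with 1 to 3 counts have exact 95% intervals, and shares of cells have Clopper-Pearson intervals. Where 0 cells had a count, the share allowed is that of 3 cells. For the thinned shares each cell was reduced to 83000 reads, which left out 9 high and low cells. Gene coordinates are from GENCODE vM21 and promoters from RefSeq, both GRCm38. Python 3.11.15, scipy 1.17.1 and matplotlib 3.10.9 were used. DESeq2 1.42.0 and limma 3.58.1 served as alternatives, and the tests were tested on simulated data.

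The members and lists were chosen with earlier results of these data known. Named genes were all list members and, in each direction, the 10 called genes with the most extreme log2 fold change that moved the same way in both mice, of which 1 is not reported here.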

Additional observations from a re-analysis of the deposited data

How the results depend on the processing

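The count of 37 called genes (32.4% of them higher) stayed within 1.5 times under 5 of 21 alternatives. It was 974 with DESeq2 (458 higher and 516 lower), 66 with no filter on low counts, 65 with limma on mean TPM with a pseudocount of 1 and 11 (6 higher) with a pseudocount of 0.1. It was 18 (8 higher and 10 lower) without the replicate block that pairs the groups by mouse, 9 with the cells between as a group of their own, 7 (1 higher) with the sums of the Lgr5 mice, and 5 to 8 when each Lgr6 mouse was left out of that fit, where 1 mouse per comparison has no replicate and takes its spread from the other sums of that fit. It was 12 with the cells between divided at 9.5, 5 without low cells with Epcam or Sftpc, 1.3e+02 (50 higher and 78 lower) without low cells with Pdgfra, 11 with cells of at least 100000 counts and 1.4e+02 (49 higher and 94 lower) with every cell thinned to 1 depth. With 3 alternatives chosen after seeing the data it was 50 without Rn45s, 200 without the deepest low cell of mouse 1 and 5 without low cells with Epcam, Sftpc or Pdgfra; the 50 lies within 1.5 times. The cause of these differences was not tested.

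Of the 37 genes, 2 changed direction under an alternative that tested them. Lyz2 had a log2 fold change of 10.76 without low cells with Epcam or Sftpc and of 10.57 without those with Pdgfra as well. In every Acta2-low cell left, Lyz2 was at 0 in log2(TPM + 1), and the Acta2-high sums held only 7.13 and 8.81 CPM. Both fitted values thus stand against a group at 0 and are not bounds. Iigp1 had a log2 fold change of 1.57 with low cells without a count of Acta2. Among genes that did not pass, Lgr5 turned to 0.0832 with the cells between divided at 9.5 and to 0.67 without Epcam or Sftpc cells. Of those left-out cells 1 had Lgr5 at 1 or above, at 10.83, and Lgr5 was at 0 in all cells with Sftpc at 8 or above. In the other Acta2-low cells Lgr5 reached no more than 2.73. Hhip turned to -0.4365 with low cells without a count of Acta2, -0.2847 without Pdgfra cells and -0.6588 without Epcam, Sftpc or Pdgfra cells. The share of cells with a count moved as the sums did in both mice for 36 of the 37 genes, and for 35 after thinning. Mean levels per cell did so for 36. The CPM of the sums did so for 37, which is no separate check, since the genes were called from these sums.

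With 2 mice, and cells from which reads were amplified without molecular identifiers, depth limits what can be said of genes found in few cells, such as Cysltr1.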
